A study of Mus musculus with 9 samples.

Results

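Cytosolic ribosomal proteins are the protein subunits of the ribosomes that translate nuclear-encoded messages, and their genes were followed here in mouse spleen-derived monocytes given LPS, or LPS and then octanal. Members were chosen by symbol (Rplp0, Rplp1, Rplp2, Rpsa, and Rpl or Rps with a number and at most a short ending), leaving out pseudogenes and Rps6 kinases, with at least 10 counts summed over the 9 libraries. Such a symbol was carried by 84 of the 26770 gene rows, and 83 were members. The remaining row, Rpl10l, had 0 counts. The members were 46 genes of the large subunit, 31 of the small subunit and 6 like copies, paralogs of a ribosomal protein gene whose symbols end in l, l1 or al (Rpl3l, Rpl7l1, Rpl22l1, Rpl36al, Rpl39l and Rps27l). Fau and Rack1 also encode proteins of the cytosolic ribosome but fall outside the naming rule, and they are given separately.

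RNA was taken from spleen-derived monocytes of WT mice in 3 groups of 3 libraries. The untreated group received the solvent DMSO at 1 in 1000. The LPS group received lipopolysaccharide, a component of the outer membrane of Gram-negative bacteria sensed by Toll-like receptor 4, at the low dose of 40 ng/ml for 5 hours. The third group was primed with low-dose LPS and then given octanal, an aldehyde ligand of the olfactory receptor Olfr2, at 20 µM for 18 hours. Single sample labels count up from these values (octanal for 18, 19 and 20 hours, DMSO at 1 in 1000, 1001 and 1002), and libraries of a group were treated as alike. DMSO is named for the untreated libraries only, the labels of the octanal libraries give no LPS dose, and octanal cannot be told apart from the longer time since LPS. Separate animals or cultures are not stated, so the p-values cover no more than the scatter among libraries, which may be technical.

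Each ribosome is built from a small subunit, which reads the message, and a large subunit, which joins amino acids, and nearly every ribosomal protein is present once in each ribosome, with Rplp1 and Rplp2 of the stalk as exceptions. Messages of these genes belong to the TOP class: they begin with a C followed by an unbroken run of pyrimidines, and their translation depends on mTORC1 and the cap-binding protein LARP1. In most cells, immune cells included, ribosomal protein messages are among the most abundant. Several ribosomal proteins have roles outside the ribosome, such as Rpl5 and Rpl11, which bind Mdm2 and so stabilise p53, and Rpl13a, part of a complex that represses translation of inflammatory messages.

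The stretches around the annotated transcription start show members with a run of pyrimidines, and also members without it. They run from 10 bases before the start to 20 bases from it, in the direction of transcription, from the RefSeq promoter table (GRCm38.p6). Capitals mark the longest run of C and T that begins within 10 bases of the start, where it has at least 5 bases. For Rps24 and Rps27l, with 2 listed starts each, the start with the longest run is shown. Rps27, Rps24, Rplp2, Rps6 and Rpl13a are shown as members described below, Rps27l as the like copy of Rps27, and Rpl10 and Rpl36al as members without such a run.
Rps27: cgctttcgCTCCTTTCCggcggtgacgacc
Rps24: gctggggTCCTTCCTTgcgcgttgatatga
Rplp2: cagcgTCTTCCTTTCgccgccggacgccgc
Rps6: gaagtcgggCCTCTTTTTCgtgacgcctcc
Rpl13a: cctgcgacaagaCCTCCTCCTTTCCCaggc
Rps27l: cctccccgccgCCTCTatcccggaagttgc
Rpl10: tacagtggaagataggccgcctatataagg
Rpl36al: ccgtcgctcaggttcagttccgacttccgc
The stretch of Rps27 lies at chr3:90213629-90213658 on the minus strand, that of Rps24 at chr14:24490668-24490697 on the plus strand and that of Rplp2 at chr7:141447641-141447670 on the plus strand. Rps6 is shown at chr4:86857348-86857377 on the minus strand and Rpl13a at chr7:45128726-45128755 on the minus strand. Rps27l is shown at chr9:66946076-66946105 on the plus strand, Rpl10 at chrX:74270806-74270835 on the plus strand and Rpl36al at chr12:69184048-69184077 on the minus strand. In Rps27, Rps24, Rplp2 and Rps6 the run covers the annotated start itself, with 9, 9, 10 and 10 bases. In Rpl13a the run of 14 bases begins after the annotated start.

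The promoter table held an entry for 63 of the 83 members. A gene was counted where any of its listed starts met the condition. A run of at least 5 pyrimidines covered the annotated start in 20 of the 63 (31.7%), against 11.8% of the 27025 genes of the table and 5.80% of 69 mitochondrial ribosomal protein genes. A run of that length began within 10 bases of the start in 61.9% of members and 42.1% of all genes. The letters CTTTCC or CTTTTC, searched on the transcribed strand within 15 bases of the start and mostly lying within such runs, were present in 15 members (23.8%), 2.97% of all genes and 2.90% of mitochondrial ribosomal protein genes. No like copy had a run covering the start (0 of 6). These are counts of letters in which the start base was not required to be a C, so they are wider than the definition of TOP messages. Annotated starts can also lie some bases away from the starts used in these cells.

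The members lie on 19 chromosomes in the GENCODE M21 annotation of GRCm38, 14 of them on chromosome 7, and all 83 are annotated as protein-coding. Introns or exons of 30 members hold 59 genes of small nucleolar RNAs, which guide the modification of ribosomal RNA. In 39 members an exon overlaps an exon of another annotated gene, and since the use of strand in counting is not given, reads of such pairs may be shared. Examples are Rpl12 (with Lrsam1), Rpl5 (with Fam69a), Rps18 (with Vps52) and Rps27a (with Clhc1), where the other gene is protein-coding and on the opposite strand. In Rplp2, Rps3, Rpsa and Rpl10, among others, the overlap is with the gene of a small nucleolar RNA.

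Total counts were 29594291 to 38388421 per library. Of these, the members together took 2.13%, 2.78% and 1.89% in untreated replicates 1, 2 and 3, 4.04%, 3.51% and 3.53% with LPS, and 2.80%, 2.55% and 2.43% with LPS and octanal. Every LPS library lay above every library of both other groups, and untreated replicate 2 lay within the range of the octanal libraries. Group means were 2.27 ± 0.461% (SD, n = 3), 3.69 ± 0.299% and 2.59 ± 0.191%. These shares rest on 579249 to 1473146 member counts per library, so counting error is small beside the spread between libraries. In bulk RNA, fewer cells of a type and less RNA per cell cannot be told apart. Markers of some other cells also differed between the groups. The summed level of 12 matched T cell markers (of 15 listed) was 693 to 2151 CPM (counts scaled to the size of the library) in untreated, 3397 to 4466 in LPS and 2086 to 3160 in octanal libraries. All 12 T cell markers rose with LPS in edgeR's quasi-likelihood test, where 15.2% of all genes tested rose and 17.6% fell. Within the untreated group the library with the highest member share, replicate 2, also had the highest T cell sum. The other untreated libraries did not follow that order. Replicate 1 had the lowest T cell sum (693 CPM) but a higher member share than replicate 3 (1494 CPM). The summed level of 13 neutrophil markers was 13402 to 26342 CPM in untreated, 1864 to 2306 in LPS and 6034 to 13273 in octanal libraries, and 12 of the 13 fell with LPS. Of 10 classical monocyte markers 6 fell and 1 rose with LPS, with sums of 8032 to 17940, 3045 to 4214 and 6260 to 9290 CPM in the same groups. Of 7 non-classical monocyte markers 2 rose and 1 fell, with sums of 488 to 528, 603 to 654 and 631 to 687 CPM. The labels name monocytes without a subtype. None of the matched markers of these lists was at 0 throughout. The 8 matched B cell markers (of 10 listed) had sums of 103 to 343, 145 to 197 and 81.1 to 110 CPM. With LPS 7 of them had a negative log2 fold change and 1 was called higher. Sums of NK and dendritic cell markers were above all untreated libraries in every LPS library, while macrophage, eosinophil and erythroid sums had their highest library in the untreated group. The part of cell composition in the results below was not tested. Transcripts of the mitochondrial genome were also highest with LPS, at 2.20% to 3.99% of counts in untreated, 4.12% to 7.66% in LPS and 2.31% to 3.10% in octanal libraries.

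**Figure D1:**
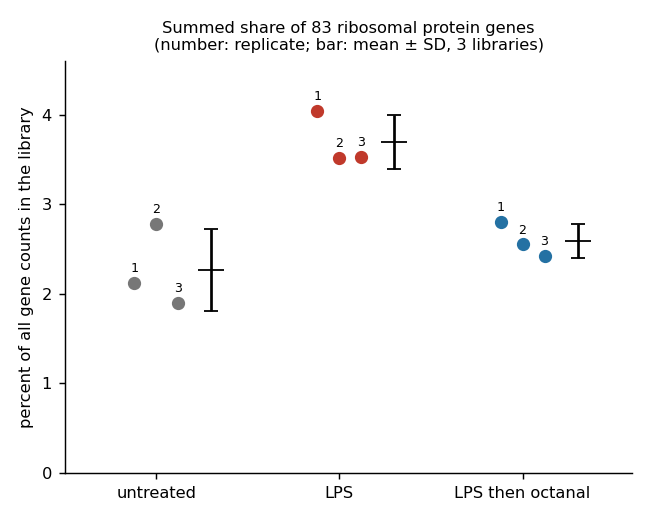
Share of all gene counts taken by the 83 members, in percent, for each library (points, numbered by replicate) with the group mean ± SD over 3 libraries. The LPS libraries sit between 3.51% and 4.04%, above all libraries of both other groups.

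With LPS, most ribosomal protein genes rose together and by a modest amount. In edgeR's quasi-likelihood test, with p-values adjusted by Benjamini-Hochberg over the 15447 genes tested, 54 of the 82 tested members rose at an adjusted p under 0.05 and 0 fell, at an unadjusted p under 0.05 also 1 fell, and DESeq2 called 58 higher, where it called 18.7% of all genes higher, and 0 lower. Over all genes tested, 15.2% rose and 17.6% fell, and at an unadjusted p under 0.05, 3437 of the 15447 were higher and 3529 lower. The median log2 fold change of the members was 0.56, a 1.48-fold difference, against 0.01 over all genes, and 78 of 82 members had a positive value. The LPS libraries lay above all untreated libraries in 64 members and below them in 1 (Rps27l), where 26.7% and 24.8% of all genes were so placed. Leaving out LPS replicate 1 left 26 members called (4.83% of all genes rose then), and other single libraries left 39 to 64. The 26 members called whichever library was left out included Rplp0, Rplp1, Rplp2, Rps3, Rps6, Rps24, Rps27, Rpl5, Rpl11 and Rpl12. Without normalization factors beyond total counts the median of all genes was 0.11 and that of the members exceeded it by 0.54. Of all genes called in this comparison 46.4% were higher, and 55.3% on total counts and 60.4% on deposited FPKM.

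**Figure D2:**
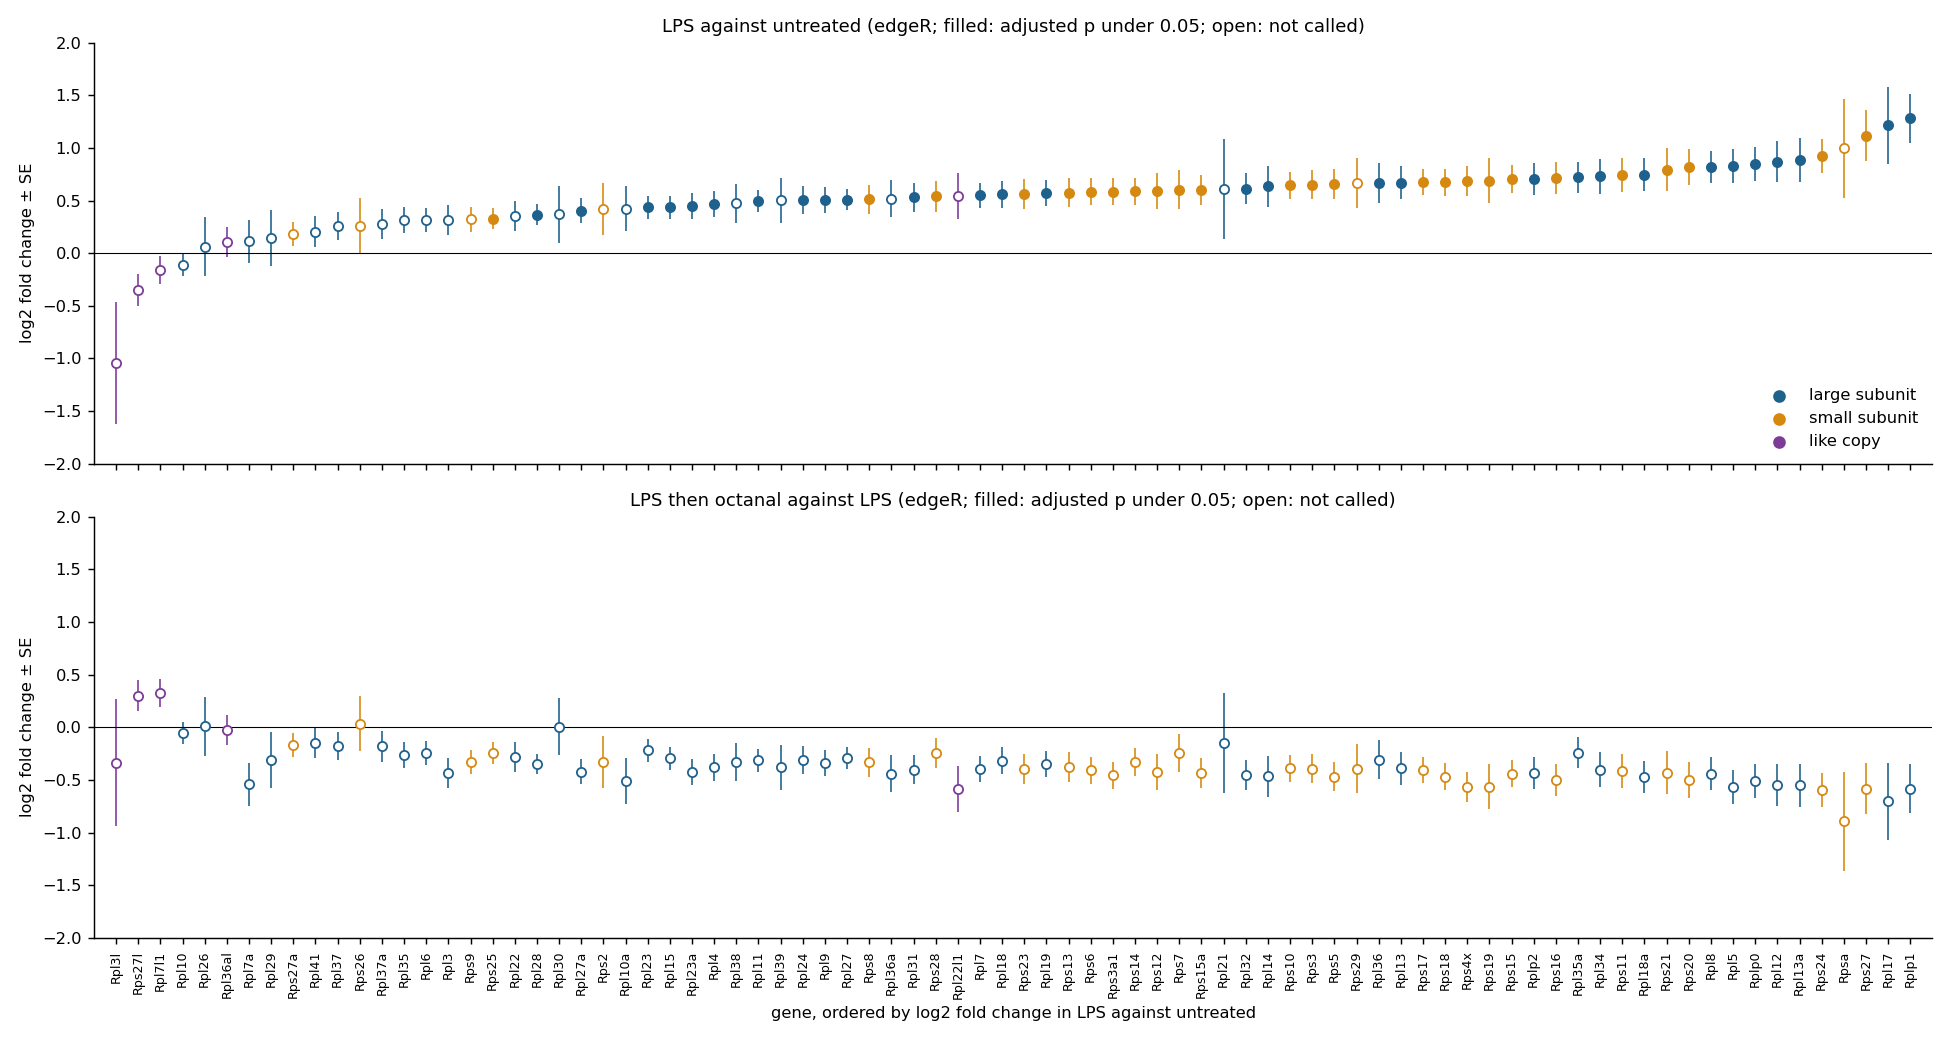
Log2 fold change ± SE of the 82 tested members from edgeR in LPS against untreated (top) and in LPS then octanal against LPS (bottom), in the order of the top panel. Filled points passed an adjusted p under 0.05: 54 in the top panel and 0 in the bottom panel, where 77 points lie below 0.

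Both subunits took part. In the large subunit 29 of 46 members rose, with a median log2 fold change of 0.51, and in the small subunit 25 of 31, with a median of 0.64. The difference between subunits was not tested. The log2 fold changes of the called members ran from 0.33 (Rps25, a call lost on leaving out any library but untreated replicate 2) to 1.28 (Rplp1). Of the 23 members of both subunits that were not called, 22 had positive values.

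The stalk of the large subunit, made of Rplp0, Rplp1 and Rplp2, recruits the elongation factors to the ribosome. Rplp1 had the largest change of all members: its level was 307, 524 and 296 CPM in untreated replicates 1, 2 and 3, 1025, 786 and 925 CPM with LPS, and 712, 551 and 561 CPM with LPS and octanal. None of the 3 ranges overlapped. The log2 fold change in LPS against untreated was 1.28 ± 0.24 (SE, edgeR adjusted p = 0.0056). Rplp0, which anchors the stalk to ribosomal RNA, was at 941, 1234 and 914 CPM in untreated, 2038, 1767 and 1736 CPM in LPS and 1357, 1276 and 1255 CPM in octanal libraries. Its log2 fold change with LPS was 0.84 ± 0.16 (edgeR adjusted p = 0.0064), and here too the ranges were apart. Rplp2 was at 237, 319 and 209 CPM in untreated, 447, 404 and 394 CPM in LPS and 319, 313 and 290 CPM in octanal libraries. It rose by 0.70 ± 0.15 on the log2 scale (edgeR adjusted p = 0.011), less than Rplp1, with which it forms dimers. In Rplp2 the octanal and untreated libraries overlapped, with untreated replicate 2 level with octanal replicate 1.

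Among the other large-subunit members, Rpl17, which lines the exit tunnel of the ribosome, had the next largest change. Its levels were uneven within groups, at 155, 105 and 66.4 CPM in untreated, 309, 238 and 210 CPM in LPS and 202, 177 and 85.5 CPM in octanal libraries. It rose with LPS by 1.21 ± 0.37 on the log2 scale (edgeR adjusted p = 0.034), a call that was lost on leaving out any LPS library or untreated replicate 2 or 3. Rpl13a was at 515, 863 and 540 CPM in untreated, 1284, 1135 and 1127 CPM in LPS and 887, 795 and 734 CPM in octanal libraries. Untreated replicate 2 stood within the octanal range, and all LPS libraries stood above both groups, with a log2 fold change of 0.89 ± 0.21 against untreated (edgeR adjusted p = 0.013) whose call was lost without LPS replicate 1. Rpl12, a protein at the base of the stalk, was at 268, 425 and 247 CPM in untreated, 622, 570 and 528 CPM in LPS and 415, 385 and 375 CPM in octanal libraries, and rose by 0.87 ± 0.20 (edgeR adjusted p = 0.012). Rpl5 was at 493, 711 and 518 CPM in untreated, 1117, 996 and 940 CPM in LPS and 689, 665 and 703 CPM in octanal libraries. Rpl11, its partner in the particle with 5S ribosomal RNA, was at 249, 276 and 220 CPM in untreated, 373, 339 and 337 CPM in LPS and 280, 287 and 276 CPM in octanal libraries. In both genes the LPS libraries stood apart from all others. The log2 fold changes were 0.83 ± 0.16 for Rpl5 (edgeR adjusted p = 0.0068) and 0.49 ± 0.11 for Rpl11 (edgeR adjusted p = 0.011).

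In the small subunit the largest called change was that of Rps27, a zinc-finger protein also called metallopanstimulin. It was at 105, 185 and 116 CPM in untreated, 361, 264 and 255 CPM in LPS and 238, 190 and 160 CPM in octanal libraries, and its LPS libraries stood above all others. Its log2 fold change with LPS was 1.12 ± 0.25 (edgeR adjusted p = 0.011). Rps24, which takes part in maturation of the small-subunit RNA, had the lowest p of all members, with 348, 496 and 383 CPM in untreated, 885, 736 and 711 CPM in LPS and 568, 495 and 484 CPM in octanal libraries. It rose by 0.93 ± 0.16 (edgeR adjusted p = 0.0045). Rps6, the substrate of S6 kinases downstream of mTORC1, was at 550, 694 and 552 CPM in untreated, 948, 869 and 872 CPM in LPS and 693, 664 and 666 CPM in octanal libraries. Rps3, which has a DNA repair activity and binds NF-kappaB, was at 621, 828 and 637 CPM in untreated, 1103, 1113 and 1059 CPM in LPS and 835, 837 and 823 CPM in octanal libraries. For Rps6 and Rps3 the octanal libraries fell inside the untreated range or just above it, far closer to it than to the LPS libraries. Their log2 fold changes with LPS were 0.58 ± 0.13 and 0.65 ± 0.14 (edgeR adjusted p = 0.011 and 0.0097).

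Rpsa, which is also known as the laminin receptor, had a similar fold change and a much larger error. It was at 736, 162 and 643 CPM in untreated replicates 1, 2 and 3, 1021, 1056 and 996 CPM with LPS, and 757, 442 and 455 CPM with LPS and octanal. Untreated replicate 2 was far below the other 2 untreated libraries, although the summed share of all members was highest in that library of the group. The log2 fold change in LPS against untreated was 1.00 ± 0.47, which missed the threshold (edgeR adjusted p = 0.13).

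Some members with high levels moved little. Rpl10, which completes the large subunit at the end of its maturation, was at 709, 643 and 600 CPM in untreated, 608, 584 and 613 CPM in LPS and 573, 586 and 581 CPM in octanal libraries. Its log2 fold change with LPS was -0.11 ± 0.11 (edgeR adjusted p = 0.44), the only negative value among the tested genes of both subunits. Rps27a, made as a fusion with ubiquitin, was at 308, 368 and 281 CPM in untreated, 367, 372 and 347 CPM in LPS and 325, 324 and 319 CPM in octanal libraries. The untreated and LPS ranges overlapped, and the log2 fold change was 0.18 ± 0.11 (edgeR adjusted p = 0.24). Rpl7a, at 127 to 224 CPM in untreated and 164 to 210 CPM in LPS libraries, and Rpl41, at 162 to 242 CPM and 218 to 260 CPM, also overlapped between these groups.

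Of the 5 tested like copies 0 were called with LPS in edgeR's quasi-likelihood test, where 15.2% of all genes rose and 17.6% fell (in each direction 1 had an unadjusted p under 0.05, and DESeq2 called 0). Their median log2 fold change was -0.16. On deposited FPKM it was 0.09, over a smaller set, since Rpl3l was left out there for a mean under 1 FPKM. No test compared them with the other members, and Rpl22l1, given below, had a positive value near the median of all members. Rps27l, a close paralog of Rps27 and a p53 target, was at 39.1, 29.0 and 28.9 CPM in untreated, 22.1, 28.03 and 26.01 CPM in LPS and 30.2, 32.0 and 31.5 CPM in octanal libraries. All LPS libraries were below all others, with a log2 fold change of -0.35 ± 0.15 against untreated (edgeR adjusted p = 0.098). Expressed as a percent of Rps27 CPM, Rps27l was at 37.2%, 15.7% and 24.95% in untreated, 6.12%, 10.6% and 10.2% in LPS and 12.7%, 16.9% and 19.7% in octanal libraries. The LPS libraries did not overlap the others in this ratio either. A two-sided exact permutation test gave p = 0.1 for LPS against untreated, the smallest that 3 against 3 allows, and an adjusted p of 0.25 over the 15 ratio comparisons made.

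Rpl7l1, a paralog of Rpl7 that acts in assembly of the large subunit, was at 110, 96.6 and 82.3 CPM in untreated, 73.2, 93.0 and 92.0 CPM in LPS and 104, 117 and 103 CPM in octanal libraries. Rpl7 itself was at 527, 649 and 556 CPM, 907, 826 and 799 CPM, and 643, 642 and 639 CPM in the same groups, and rose with LPS by 0.55 ± 0.12 (edgeR adjusted p = 0.011), a call lost without LPS replicate 1. The copy thus overlapped between untreated and LPS where Rpl7 did not, and its log2 fold change was -0.16 ± 0.13 (edgeR adjusted p = 0.38). As a percent of Rpl7, Rpl7l1 was at 14.8% to 20.9% in untreated, 8.07% to 11.5% in LPS and 16.04% to 18.2% in octanal libraries (two-sided exact permutation p = 0.1 for LPS against each other group, 0.25 adjusted over 15).

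Rpl36al, an autosomal copy of the X-linked Rpl36a, was at 53.3 to 80.1 CPM in untreated, 67.7 to 70.4 CPM in LPS and 64.3 to 69.6 CPM in octanal libraries, with a log2 fold change of 0.10 ± 0.14 with LPS (edgeR adjusted p = 0.61) that turned negative on leaving out untreated replicate 3. Its parent Rpl36a was at 42.8 to 66.5 CPM in untreated and 73.2 to 97.1 CPM in LPS libraries. The change of Rpl36a, 0.52 ± 0.18, fell just short of the threshold (edgeR adjusted p = 0.051) and passed it in DESeq2, with 0.50. Rpl22l1, which can replace Rpl22 on the ribosome, was at 25.6 to 44.3 CPM in untreated, 49.8 to 61.2 CPM in LPS and 30.9 to 44.7 CPM in octanal libraries. Rpl22l1 is thus the only tested like copy whose LPS libraries stood above both other groups, with 0.54 ± 0.22 (edgeR adjusted p = 0.087), as did its parent Rpl22, with 0.36 ± 0.14 (edgeR adjusted p = 0.086), a difference that was 1.24 and called on FPKM. The muscle-enriched Rpl3l was at 0.154 to 0.779 CPM over all libraries, beside 262 to 437 CPM for Rpl3, and Rpl39l, known from testis, had 18 counts in all and was not tested, beside 43.7 to 101 CPM for Rpl39. The changes of Rpl3l (-1.05 ± 0.58, edgeR adjusted p = 0.19), Rpl3 (0.32 ± 0.14, adjusted p = 0.12) and Rpl39 (0.50 ± 0.21, adjusted p = 0.10) did not pass.

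**Figure D3:**
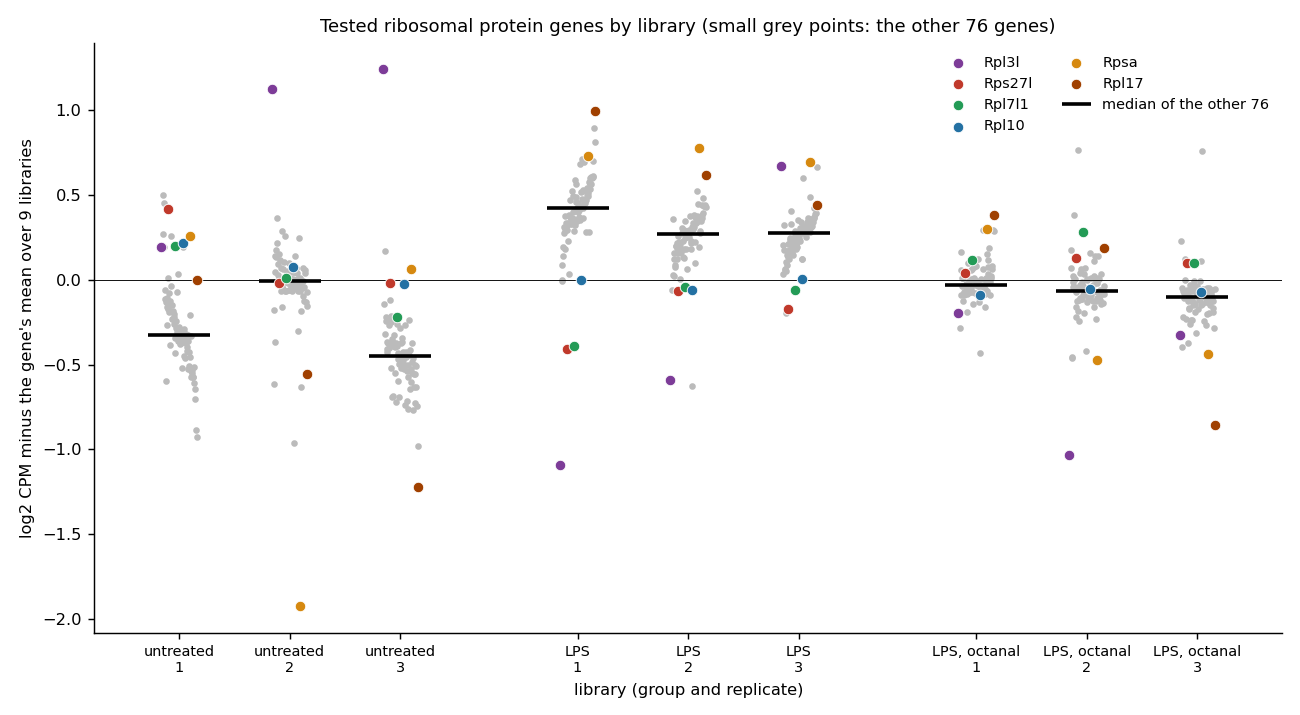
Log2 CPM of each tested member in each library, minus the gene's mean over the 9 libraries, with 6 named members as coloured points and the median of the other 76 as black bars. The bars are highest in the LPS libraries, Rps27l and Rpl7l1 lie below 0 there, and Rpsa in untreated replicate 2 is the lowest point of the plot.

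Across the 9 libraries, 57 of the 82 tested members had a Pearson r over 0.9 with the median log2 CPM of the other members, and 5 had a negative r. This is a description over 9 libraries that share their groups and their scaling. The negative values were those of Rps27l (-0.71), Rpl3l (-0.51), Rpl7l1 (-0.36), Rpl10 (-0.31) and Rpl26 (-0.07), and the highest was that of Rplp2 (0.997). Untreated libraries varied most among themselves: the median SD of a member's log2 CPM was 0.26 in untreated, 0.11 in LPS and 0.07 in octanal libraries.

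When octanal followed LPS, the members lay lower than with LPS alone and higher than, or level with, untreated cells. Of the 77 tested members of both subunits, 67 had group means in the order untreated, octanal, LPS. The share of all genes in this order was not taken. Against LPS alone, 77 of 82 members had a negative log2 fold change, with a median of -0.39 against -0.05 over all genes. The octanal libraries lay below all LPS libraries in 67 members and above them in 2, where 19.9% and 18.3% of all genes were so placed. In edgeR's quasi-likelihood test 0 members passed in either direction, and of all genes 0% rose and 0% fell. At an unadjusted p under 0.05, 53 members were lower and 1 was higher, where 1342 of the 15447 genes tested were lower and 2108 higher. DESeq2 called 25 members lower and 0 higher, where it called 3.26% of all genes lower. The edgeR fit of only the 6 libraries compared called 26 lower, where 2.92% of all genes were lower, and the fit without untreated replicate 2 called 5, where 0.455% were lower. All 3 octanal libraries had fewer T cell and more neutrophil marker counts than all LPS libraries (given above), and the part of this in the lower levels was not tested.

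The 4 members of lowest p in that direction were all of the small subunit. Rps4x, the X-linked gene of a core small-subunit protein, was at 637, 804 and 601 CPM in untreated, 1177, 1060 and 1054 CPM in LPS and 773, 696 and 748 CPM in octanal libraries. Its octanal libraries lay inside the untreated range, and against LPS its log2 fold change was -0.57 ± 0.14 (edgeR adjusted p = 0.077). Rps3a1, a core small-subunit protein, had -0.46 ± 0.12 (edgeR adjusted p = 0.092), with 1148 to 1205 CPM in LPS and 855 to 872 CPM in octanal libraries. Rps24 had -0.59 ± 0.16 and Rps18 -0.47 ± 0.13 (edgeR adjusted p = 0.092 for each). Rps18 was at 24.7 to 26.3 CPM in untreated, 37.7 to 44.7 CPM in LPS and 25.8 to 34.2 CPM in octanal libraries.

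Of the members with roles described above, Rplp0 had a log2 fold change of -0.51 ± 0.16 in octanal against LPS (edgeR adjusted p = 0.12), Rplp1 -0.58 ± 0.23 and Rplp2 -0.43 ± 0.15 (adjusted p = 0.19 and 0.15). Rpl5 was at -0.57 ± 0.16 (edgeR adjusted p = 0.098), Rpl11 at -0.32 ± 0.11 and Rpl13a at -0.55 ± 0.20. Rps6 and Rps3 were at -0.41 ± 0.13 and -0.39 ± 0.14, Rps27a at -0.17 ± 0.11 and Rpsa at -0.89 ± 0.47. The 4 members of lowest p with positive values were Rpl7l1 (0.32 ± 0.13, edgeR adjusted p = 0.20), Rps27l (0.30 ± 0.15, adjusted p = 0.27), Rps26 (0.03 ± 0.26) and Rpl26 (0.01 ± 0.28). The last 2 turned negative on total counts and on FPKM, and they are level within their error. In Rpl7l1 and Rps27l all octanal libraries lay above all LPS libraries, so these like copies had their lowest group mean in LPS where most members had their highest.

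Against untreated cells the octanal libraries showed small differences. No member passed edgeR's quasi-likelihood test (0 higher and 0 lower, with 3 higher and 1 lower at an unadjusted p under 0.05), where 2.63% of all genes rose and 6.03% fell. At that unadjusted p, 1701 of the 15447 genes tested were higher and 2538 lower. DESeq2 called 2 members higher, Rpl35a and Rplp1, where 6.7% of all genes were called higher. The median log2 fold change was 0.17 against -0.01 over all genes, and 72 members had positive values. The octanal libraries lay above all untreated libraries in 6 members and below them in 2, where 13.5% and 16.3% of all genes were so placed. Without untreated replicate 2, which had the highest member share of its group, 14 members were called higher and 1 lower, the latter being Rpl7a, where 5.09% of all genes were called higher and 8.43% lower. All 3 comparisons use the same 9 libraries, and each pair of them shares a group.

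Rpl35a, a large-subunit protein altered in some forms of Diamond-Blackfan anaemia, had the lowest p in this comparison. It was at 15.98, 11.9 and 14.2 CPM in untreated, 22.4, 21.1 and 25.9 CPM in LPS and 20.5, 20.3 and 17.8 CPM in octanal libraries, with the octanal libraries above all untreated ones and a log2 fold change of 0.48 ± 0.15 (edgeR adjusted p = 0.080). Rplp1 had 0.70 ± 0.23 (edgeR adjusted p = 0.097), Rps27 0.53 ± 0.24 (adjusted p = 0.19) and Rpl8, which lies near the peptidyl transferase centre, 0.38 ± 0.15 (adjusted p = 0.16). On the other side stood Rpl7a, at -0.43 ± 0.20 (edgeR adjusted p = 0.21), with 224, 127 and 184 CPM in untreated and 154, 119 and 124 CPM in octanal libraries. Rpl3l, Rpl10 and Rpl3 were at -1.38 ± 0.59, -0.17 ± 0.11 and -0.12 ± 0.14 (edgeR adjusted p = 0.17, 0.34 and 0.63).

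Levels per gene length differed widely between members. Mean deposited FPKM over the 9 libraries ran from 1.52 (Rpl21) to 1203 (Rplp1) among the 77 members of both subunits, with a median of 346 and quartiles of 205 and 542. The highest were Rplp1, Rpl13a (1017) and Rplp0 (998), in that order. Their FPKM ranges over libraries overlapped, so the order among them is not beyond the spread. The lowest of all members tested were the like copy Rpl3l (0.256), Rpl21 and Rpl29 (2.48). Rpl21 was at 0.460 to 2.51 FPKM and Rpl29 at 1.94 to 2.90 FPKM over the libraries, below the other members of both subunits in every library, and the next lowest, Rps2, was at 3.98 to 10.2 FPKM. In all, 7 members of both subunits were under 50 FPKM: Rpl21, Rpl29, Rps2, Rpl34, Rpl26, Rpl30 and Rpl35a.

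Most members have near-identical copies elsewhere in the genome, between which a counting method may divide or discard reads. A copy was counted where an annotated transcript of another gene matched at least 80% of the coding sequence at 95% identity or more. Of the 83 members 74 had at least 1 such copy (562 in all, 96.8% of them annotated as pseudogenes), with a median of 5, and Rpl21 had most, with 57. Median FPKM was 478 over 6 members without a copy, 361 over 28 with 1 to 4, 329 over 35 with 5 to 14 and 192 over 8 with 15 or more. Across these 77 genes, which share their libraries and are not independent, Spearman's rho between the number of copies and FPKM was -0.28. Between the length of the coding sequence and FPKM, rho was 0.455. The median log2 fold changes with LPS in these 4 classes were 0.67, 0.57, 0.57 and 0.48. The part of the copies, or of coding length, in the low levels was not tested.

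**Figure D4:**
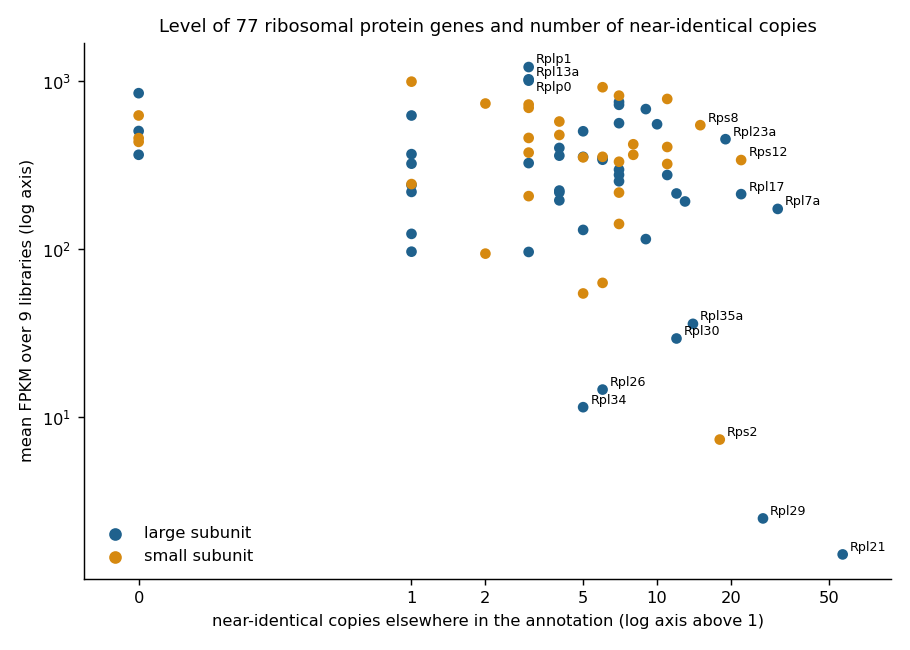
Mean FPKM over 9 libraries (log axis) against the number of near-identical copies for the 77 members of both subunits, coloured by subunit. The lowest points, Rpl21 and Rpl29, have 57 and 27 copies, and members without a copy lie between 362 and 841 FPKM.

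Most near-identical copies had no deposited counts, among them all 31 of Rpl7a, all 22 of Rpl17 and all 19 of Rpl23a. Some other copies held more counts than the gene itself. The 2 rows Gm10260 and Gm11361, copies of Rps18, had 73337 and 20357 counts over the 9 libraries against 9773 for Rps18. Rps12-ps3 had 69708 counts against 63339 for Rps12, and BC004004, which overlaps an Rpl21 copy, had 14588 against 600 for Rpl21. These rows mostly followed their parents: with LPS, Gm10260 rose by 0.58 ± 0.15 (edgeR adjusted p = 0.022), Gm11361 by 0.60 ± 0.17 (adjusted p = 0.029) and Rps12-ps3 by 0.39 ± 0.12 (adjusted p = 0.034). The parent Rps18 rose by 0.67 ± 0.13 (edgeR adjusted p = 0.0063). Rps12 rose by 0.59 ± 0.17 (adjusted p = 0.029), a call lost without LPS replicate 1 or untreated replicate 1 or 3. BC004004 fell by 0.61 on the log2 scale (SE 0.14, edgeR adjusted p = 0.012), while Rpl21 itself was at 0.61 ± 0.48 (adjusted p = 0.35). Among rows with fewer counts than the gene, Rpl9-ps6 rose by 0.59 ± 0.18 (edgeR adjusted p = 0.036) and Gm10073, a copy of Rplp1, by 1.02 ± 0.33 (adjusted p = 0.042). Others were not called, such as Rps27rt, a copy of Rps27 (0.45 ± 0.38, adjusted p = 0.39), and Rpl36a-ps1 (-0.14 ± 0.63, adjusted p = 0.89). With the copies' counts added to the parent, Rps18 still rose with LPS, by 0.59 ± 0.15 (edgeR adjusted p = 0.018), and Rps12 by 0.49 ± 0.13 (adjusted p = 0.020). Rpl21 with BC004004, a sum made up mostly of BC004004 counts, fell by 0.56 (SE 0.14, edgeR adjusted p = 0.016). The levels of Rps18, Rps12, Rpl21 and other members with many copies are therefore uncertain.

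The row Rpl10-ps3, a pseudogene of Rpl10, was uneven in a way the groups do not follow. The untreated libraries held 1551, 564 and 208 counts of it, in the order of their numbers, against 204, 1774 and 90 with LPS, and 194, 1764 and 1202 with LPS and octanal. High and low libraries were present in every group, while levels of Rpl10 itself were even. Added to Rpl10, it left the log2 fold change with LPS at -0.11 ± 0.12 (edgeR adjusted p = 0.49).

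Members rose with LPS in both promoter classes, and the difference between the classes was not tested. Of the 36 tested members of both subunits with a run of at least 5 pyrimidines over the start or beginning within 10 bases of it, 24 rose with LPS and the median log2 fold change was 0.57. Of 21 without such a run, 16 rose and the median was 0.51. Rpl5, Rplp0 and Rps3 are examples of members that rose without it, and Rpl35 and Rps26, at 18 and 9 bases of run, of members that were not called with LPS.

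The counts for other genes of the translation machinery stand beside 15.2% of all genes that rose with LPS and 17.6% that fell. Of the ribosomal proteins outside the naming rule, Rack1, a scaffold on the small subunit, rose with LPS by 0.63 ± 0.14 (edgeR adjusted p = 0.012), and Fau was at 0.32 ± 0.12 (adjusted p = 0.071, called by DESeq2). In the list of 14 elongation factors and related genes 3 rose and 1 fell, with a median of 0.25. Those that rose were Eef1b2 (0.57 ± 0.14, edgeR adjusted p = 0.015), Eef2 (0.60 ± 0.18, adjusted p = 0.032) and Tpt1 (0.67 ± 0.17, adjusted p = 0.020). The gene that fell was Eef2k, the kinase that inhibits Eef2, by 1.63 on the log2 scale (SE 0.33, edgeR adjusted p = 0.0085). Of 39 initiation factor genes 2 rose, Eif4a2 (0.80 ± 0.15, edgeR adjusted p = 0.0054) and Eif3g (0.34 ± 0.11, adjusted p = 0.044), and 1 fell, Eif1a, by 0.66 (SE 0.15, adjusted p = 0.012). Their median was 0.07. Without LPS replicate 1 the calls of Eef1b2, Eef2, Tpt1, Eif3g and Eif1a were lost, those of Eef2 and Eif3g also without most other single libraries and that of Tpt1 without untreated replicate 1 or any LPS library.

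Ribosome assembly genes had a smaller median than the ribosomal proteins, of the same sign. Of 50 ribosome biogenesis genes 15 rose with LPS and 0 fell (1 at an unadjusted p under 0.05 and 1 in DESeq2; median 0.22), led by Las1l, which processes the large-subunit RNA (0.87 ± 0.13, edgeR adjusted p = 0.0024), Emg1, a ribosomal RNA methyltransferase (0.69 ± 0.11, adjusted p = 0.0025), Wdr12 (1.00 ± 0.16, adjusted p = 0.0033) and Ddx10 (0.71 ± 0.14, adjusted p = 0.0078). Of 12 RNA polymerase I genes, which make ribosomal RNA, 4 rose and 0 fell (0 also at an unadjusted p under 0.05 and in DESeq2; median 0.38): Taf1c, Polr1d, Taf1d and Rrn3. The calls of the last 3 were lost without LPS replicate 1, LPS replicate 3 or some of the other libraries. Among 78 genes of the mitochondrial ribosome 1 rose, Mrpl58 (not without untreated replicate 3 or LPS replicate 1 or 2), and 7 fell, among them Mrpl51, by 0.71 (SE 0.19, edgeR adjusted p = 0.022, lost without any 1 LPS library), and the median was -0.13. The median of the mitochondrial list was -0.03 on total counts and 0.0035 on FPKM, where that of the members stayed positive, and no test compared the lists. In octanal against LPS, edgeR's quasi-likelihood test called 0 genes of any of these lists, as it called 0 of all genes. At an unadjusted p under 0.05, 19 of their 238 tested genes were higher and 15 lower (regulators and surveillance genes, given last, included), and DESeq2 called 6 and 7. Of the 15447 genes tested, 2108 were higher and 1342 lower at that p, and DESeq2 called 11.2% of all genes higher and 3.26% lower. The medians were -0.12 for elongation, -0.06 for biogenesis and -0.24 for RNA polymerase I. Those of initiation and mitochondrial ribosomal protein genes were 0.02 and 0.08, and negative on total counts (-0.07 and -0.01) and FPKM.

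**Figure D5:**
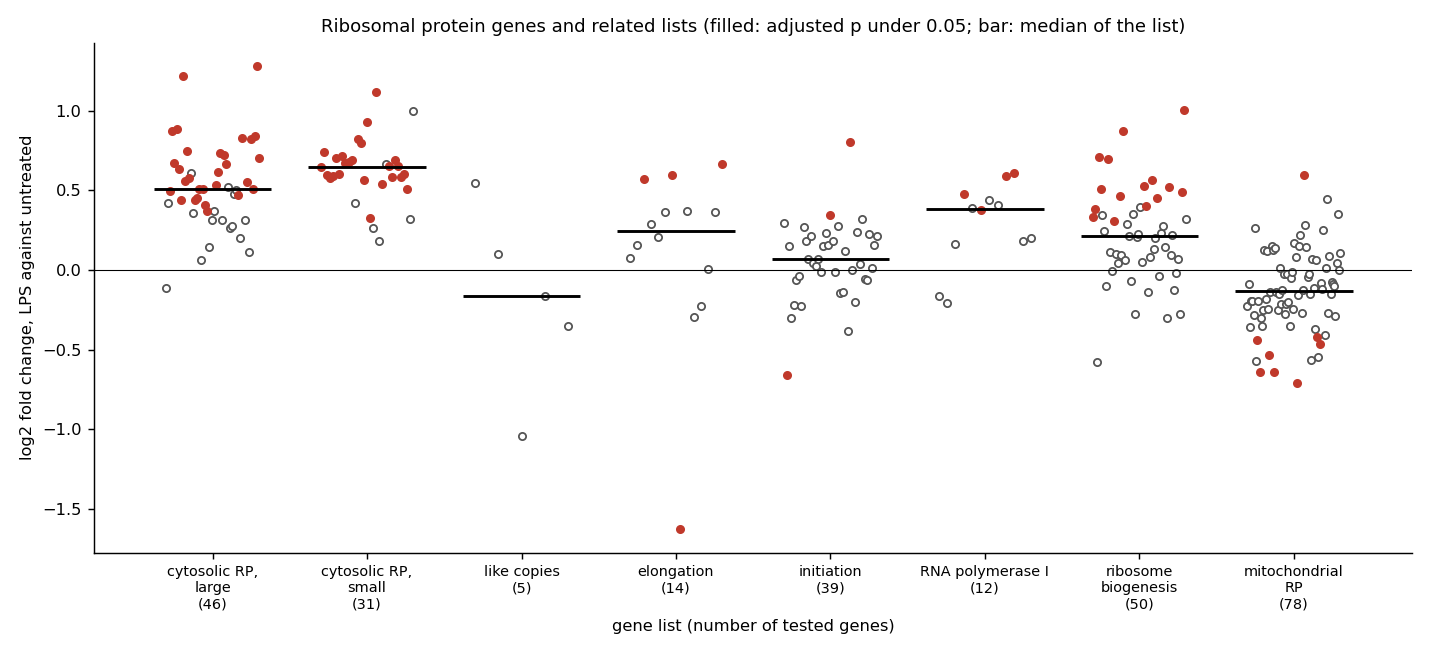
Log2 fold change in LPS against untreated for the members by kind and for related gene lists (number of tested genes in brackets), with filled points at an adjusted p under 0.05 and bars at the median of each list. The medians are 0.51 and 0.64 for the large and small subunit and -0.13 (0.0035 on FPKM) for mitochondrial ribosomal proteins.

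Regulators of mTORC1, Myc and TOP messages were mixed, with 8 rising and 4 falling of 29 with LPS (median 0.13). Sesn1, an inhibitor of mTORC1, was at 28.7, 60.3 and 42.5 CPM in untreated, 135, 118 and 107 CPM in LPS and 87.4, 64.4 and 61.8 CPM in octanal libraries. It rose with LPS by 1.45 ± 0.25 (edgeR adjusted p = 0.0045), as did Cnbp, a protein that binds TOP messages, by 0.50 ± 0.10 (adjusted p = 0.0094). The largest falls were those of Mxd1, which competes with Myc for Max, by 2.63 (SE 0.35, edgeR adjusted p = 0.0016), and of the kinase gene Rps6ka1, by 1.10 (SE 0.16, adjusted p = 0.0021). Of 16 genes linked to ribosomal stress and quality control, 2 rose, Trp53 (0.58 ± 0.10, edgeR adjusted p = 0.0045) and Zfp598 (0.39 ± 0.09, adjusted p = 0.012, lost without LPS replicate 1 or 3), and 0 fell (1 at an unadjusted p under 0.05, and 1 in DESeq2). Of 18 listed host genes of small nucleolar RNAs 1 matched a row, and it was too low to be tested.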

How the data were processed

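Gene counts in the deposited table are whole numbers that were not normalized, per the file headers and values, and the same table holds the authors' FPKM, which per the file headers are scaled for the length of each gene and the library. Per the labels' protocols, RNA was extracted with TRIzol and libraries were made from mRNA. Per the submitters' processing notes reads were placed on GRCm38. Which aligner and counter were used, and whether strand was used, is not given in the sources used here. After 10 lines of annotation text were left out, 26770 gene rows remained, 4735 of them named only as new genes.

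Counts of all 9 libraries entered a single edgeR fit (quasi-likelihood, TMM factors 0.923 to 1.066, group as the only term) over the 15447 genes that passed filterByExpr, which hold at least 99.95% of each library's counts. Of the 83 members 82 passed that filter. P-values were adjusted by Benjamini-Hochberg over all tested genes, with calls at 0.05, and log2 fold changes are given with their SE over 3 libraries a group. CPM values use the TMM-scaled library sizes. Ratios of like copies to their parents were compared by two-sided exact permutation tests. Libraries of a group differed far beyond counting noise (chi-square per degree of freedom 46.5 to 154), so none was taken for a library deposited again.

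The members and gene lists were chosen with earlier results of these data known. Members named in the text were, in each comparison, up to 6 called members with the largest change in each direction (where none passed, the 4 of lowest p in each direction), the like copies and their parents, 10 members with known roles, and the 3 highest and 3 lowest in FPKM. From each related list the 4 genes of lowest p could be named. Rpl10, Rpl7a, Rpl41, Rps25, Rps18, Rps12, Rps4x, Rps3a1, the copy rows and examples by promoter class were singled out after their values were seen.

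Alternatives were DESeq2 size factors, total counts, normalization without the members, no filter or at least 10 CPM in 3 libraries, DESeq2, limma-voom, limma on log2(FPKM + 1), the 6 compared libraries alone, no new genes, pseudogene or near-identical rows added to the member, a replicate block, and leaving out each library. The edgeR script was tested on simulated data. In the simulated LPS comparison, with 15168 genes, edgeR recovered 32 of 100 genes changed 2-fold and 66 of 100 changed 4-fold. Promoters came from RefSeq (GRCm38.p6), gene positions and copies from GENCODE M21 with BLAST 2.17.0. Versions were R 4.3.3, edgeR 4.0.16, limma 3.58.1, DESeq2 1.42.0 and Python 3.11.15. A comparison of protein sequences was not run here. 1 gene outside the naming rule is not reported here.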

Additional observations from a re-analysis of the deposited data

How the results depend on the processing

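All tried scalings, filters and tools gave the members a positive median with LPS and a negative one in octanal against LPS. The number of members called higher with LPS was 40 (in the fit of the 6 libraries compared, without the octanal group) to 61 where no single library was left out. It was 26 (without LPS replicate 1) to 64 (without untreated replicate 2) where 1 was. The number called lower was 0 in each, save 1 (Rpl21 with BC004004) with near-identical rows added, a setting chosen after seeing the data. In octanal against LPS the members' median of -0.39 was -0.48 on total counts and -0.49 on FPKM, and the number called lower was 25 with DESeq2, 26 in the fit of the 6 libraries compared, and 0 to 5 with 1 library left out. The median ran from -0.40 (without LPS replicate 3) to -0.31 (without LPS replicate 1). In octanal against untreated, members called higher numbered 2 with DESeq2, 1 on FPKM and 0 to 14 with 1 library left out, and lower 0 to 1. As a percent of summed FPKM the members took 5.57% in untreated, 9.28% in LPS and 6.51% in octanal libraries. The sign turned in octanal against LPS for Rps26 (-0.061 on total counts, -0.057 on FPKM, -0.084 to 0.21 with 1 library left out) and Rpl26 (-0.089 on total counts, -0.011 with limma-voom, -0.14 on FPKM, -0.064 to 0.19 with 1 library left out). It turned with LPS for Mrpl17 (0.31 on FPKM), Rpl36al (-0.019 to 0.26 with 1 library left out) and Rpl7a (-0.11 to 0.27 with 1 library left out). Of 1361 values for 65 single genes in LPS against untreated, 1245 kept their direction and call, and in octanal against LPS 350 of 377 for 18 genes did. The cause of these changes was not tested. Correlations of same-numbered libraries, around their group means, were -0.08 to 0.16, and libraries did not all correlate best with their own number. With 3 libraries a group these values cannot decide whether replicate numbers pair the samples. With a replicate block 54 members were called higher with LPS, 53 of them also called without it, and 0 in the other comparisons. Depth limits the like copies Rpl3l and Rpl39l, which were under 1 CPM or had too few counts to be tested.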
